A study of Bos taurus with 9 samples.

Results

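The E2F and DP transcription factors were followed while bovine ear fibroblasts were turned into adipocyte-like cells by small molecules. The members were the genes whose symbol in the deposited table was E2F1 to E2F8, TFDP1 or TFDP2. The rule used no measured value, but the members were chosen with earlier results of these data known. All 10 were found, each in 1 row, among 21512 genes, and all 10 passed the filter on low counts that kept 14020 genes. Their NCBI gene numbers were 535369, 617024, 541184, 525428, 539427, 514085, 526129 and 786629 for E2F1 to E2F8, 534579 for TFDP1 and 506114 for TFDP2.

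RNA of 9 samples was sequenced in bulk, 3 samples in each of 3 groups. BEFs were wild-type fibroblasts grown out of ear margin tissue in DMEM with fetal bovine serum and taken on day 0, before any compound. CiADCs-3d and CiADCs-6d (chemically induced adipocyte-like cells) were the same kind of cell after 3 and 6 days in N2B27 medium with VBR, that is 500 ug/mL VPA (valproic acid, an inhibitor of histone deacetylases), 1 µM TTNPB (an agonist of retinoic acid receptors) and 10 µM RepSox (an inhibitor of the type I TGF-beta receptor kinase). Fibroblasts kept for the same days without the compounds were not among the samples, so the compounds, the medium and the time in culture cannot be told apart. The age and number of the animals were not given, nor whether the 3 samples of a group came from separate animals or inductions. The p-values therefore measure the spread between these samples, which may be technical. In bulk RNA, fewer cells of a type and less RNA per cell cannot be told apart.

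Library totals ran from 18509244 to 24071580 counts. Replicate 1 stood apart in both CiADCs groups. A chi-square per gene between samples was 46.1 and 34.0 for CiADCs-3d replicate 1 against the others and 15.1 between those others, and 50.6 and 35.7 for CiADCs-6d replicate 1 and 13.5 between the others, while it was 2.46 to 9.31 among BEFs. Results between the days are therefore also given without these samples where that changes the call. BEFs held fibroblast markers at high levels: the summed level of 10 fibroblast markers was 16950 to 17220 FPKM in BEFs, 5976 to 8156 FPKM in CiADCs-3d and 4007 to 5106 FPKM in CiADCs-6d. COL1A1, COL1A2, COL3A1 and VIM made up most of it. Of the 10, 5 fell and 2 (PDGFRA and PDGFRB) rose in CiADCs-3d against BEFs, and 7 fell and none rose in CiADCs-6d against BEFs. The summed level of 8 adipocyte markers was low in every group, at 21.5 to 26.0 FPKM in BEFs, 16.8 to 30.2 FPKM in CiADCs-3d and 10.9 to 12.5 FPKM in CiADCs-6d. FABP4 made up most of the BEFs sum, at 17.16, 16.35 and 18.2 FPKM, and stood at 2.25, 0.83 and 1.12 FPKM in CiADCs-6d. In CiADCs-3d against BEFs, 3 of the 8 adipocyte markers rose and 2 fell. In CiADCs-6d against BEFs, 4 of the 8 rose (ADIPOQ, LPL, CEBPA and PPARG) and 2 fell (FABP4 and CIDEC). Of all genes tested, 30.9% rose and 29.1% fell on day 3 (adjusted p under 0.05), and 35.6% rose and 31.9% fell on day 6. Of 12 markers of other cell types, PTPRC of leukocytes and MYOD1 of muscle were at 0 in every sample. The summed level of the 12 was 62.4 to 73.8 FPKM in BEFs, 19.0 to 23.8 FPKM in CiADCs-3d and 25.8 to 32.2 FPKM in CiADCs-6d, carried mostly by ACAN of cartilage and KRT5 of epidermis. ACAN had log2 fold changes against BEFs of -3.06 (day 3) and -3.5 (day 6), whereas COL2A1, also of cartilage, rose by 1.82 and 1.51 (adjusted p = 2.64e-05 and 9.96e-05, edgeR). Their part in the results was not tested.

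E2F proteins bind DNA in the promoters of genes for DNA replication and cell division. E2F1, E2F2 and E2F3 activate these genes when they are free of the retinoblastoma protein RB1, whereas E2F4 and E2F5 repress them in resting cells together with the related pocket proteins RBL1 and RBL2. E2F6 represses without a pocket protein, as part of a Polycomb complex, and E2F7 and E2F8 are atypical repressors that bind DNA without a partner and act late in the cell cycle. The other E2F proteins bind DNA as dimers with a DP protein, TFDP1 or TFDP2. In mouse cells, adipogenesis involves E2F proteins too: E2F1 is known to induce and E2F4 to repress the gene of PPARG, the main regulator of fat cell formation.

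Nearly all members changed, and most of them fell. In CiADCs-3d against BEFs, 7 members fell (E2F1, E2F2, E2F3, E2F4, E2F7, E2F8 and TFDP1), 2 rose (E2F5 and TFDP2) and 1 (E2F6) did not pass. Here and below, a gene rose or fell where its adjusted p in edgeR's quasi-likelihood test (Benjamini-Hochberg adjustment over the 14020 genes) was under 0.05. Of all genes tested, 29.1% fell and 30.9% rose in that comparison. In CiADCs-6d against BEFs the same 7 members fell and 3 rose (E2F5, E2F6 and TFDP2), while 31.9% of all genes fell and 35.6% rose. The samples of the groups did not overlap in CPM (counts scaled to library size, with TMM factors) for 9 members on day 3 and for all 10 on day 6. The share of all genes tested without such overlap was not computed, so nothing particular to the members can be read from these counts.

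The size of the changes is given next to that of all genes. A change of at least 2-fold was reached by 5 members in CiADCs-3d against BEFs (28.1% of all genes tested) and by 6 in CiADCs-6d against BEFs (35.3%). The median log2 fold change of the members was -1.15 on day 3 and -1.32 on day 6, beside 0.01 and 0.03 for all genes tested. Both comparisons use the same 3 BEFs samples. In CiADCs-6d against CiADCs-3d, 4 members fell (13.6% of all genes tested) and 1 rose (14.4%), 5 did not pass, and 3 changed at least 2-fold (7.31%).

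**Figure D1:**
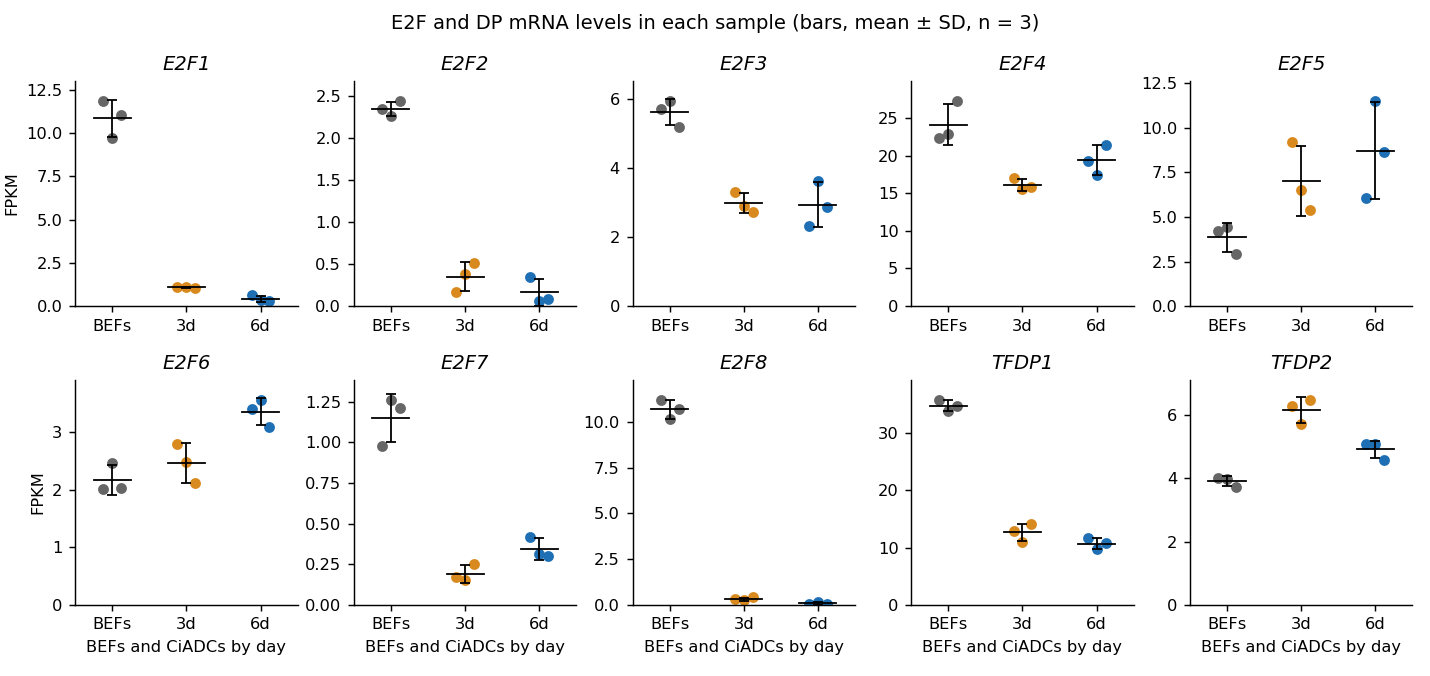
FPKM (y axis, linear, from 0, a scale of its own for each gene) of the 10 members in BEFs, CiADCs-3d and CiADCs-6d (x axis). Points are samples and bars are the mean ± SD of 3 samples. In both CiADCs groups E2F1, E2F2, E2F7, E2F8 and TFDP1 sit far below BEFs, whereas E2F5 and TFDP2 sit above BEFs.

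Among the activators, E2F1 and E2F2 each lost most of their mRNA. E2F1, the activator best known for driving cells into S phase, stood at 11.8, 9.71 and 11.02 FPKM in BEFs, at 1.1, 1.11 and 1.03 FPKM in CiADCs-3d and at 0.62, 0.38 and 0.29 FPKM in CiADCs-6d. The groups were fully apart and in the order of the days. The log2 fold change was -3.34 ± 0.20 (SE, adjusted p = 3.19e-08) in CiADCs-3d against BEFs and -4.67 ± 0.22 (adjusted p = 4.06e-09) in CiADCs-6d against BEFs. As ratios of summed counts scaled to depth, E2F1 was 10.02-fold lower on day 3 (95% counting interval 8.47 to 11.9) and 24.8-fold lower on day 6 (19.1 to 32.7), intervals that cover counting error only. E2F1 was also lower on day 6 than on day 3 (-1.33 ± 0.24, adjusted p = 0.00261).

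E2F2, a second activator, was low already in fibroblasts. It stood at 2.35, 2.27 and 2.44 FPKM in BEFs, at 0.17, 0.38 and 0.51 FPKM in CiADCs-3d and at 0.35, 0.06 and 0.09 FPKM in CiADCs-6d. No CiADCs sample reached the lowest BEFs sample, but the CiADCs groups overlapped. The counts behind these values were 222, 234 and 243 for BEFs, 14, 33 and 51 for CiADCs-3d and 24, 6 and 6 for CiADCs-6d. Its log2 fold change came to -2.75 ± 0.38 (SE, adjusted p = 5.42e-05) in CiADCs-3d against BEFs and -4.14 ± 0.43 (adjusted p = 3.8e-06) in CiADCs-6d against BEFs. The day 6 value was -5.11 without CiADCs-6d replicate 1, the sample with the most E2F2 counts of its group. The fall between the days, 1.40 ± 0.48 on the log2 scale (adjusted p = 0.0482), did not hold when a BEFs sample, replicate 2 or 3 of CiADCs-3d, or replicate 2 or 3 of CiADCs-6d was left out (adjusted p between 0.0666 and 0.196). It was -2.39 (adjusted p = 0.00306) without CiADCs-6d replicate 1.

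E2F3, the third activator, fell by a smaller amount. Its levels were 5.7, 5.92 and 5.19 FPKM in BEFs, 3.29, 2.9 and 2.73 FPKM in CiADCs-3d and 2.31, 3.63 and 2.88 FPKM in CiADCs-6d. BEFs were above both CiADCs groups, which overlapped. Its log2 fold change stood at -0.83 ± 0.14 (SE, adjusted p = 0.000311) on day 3 and -0.87 ± 0.14 (adjusted p = 0.000161) on day 6, each against BEFs. Between the days it was -0.05 ± 0.14 (adjusted p = 0.833). The row gives the gene as a whole, so isoforms of E2F3 were not separated.

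Among the repressors that lean on pocket proteins, E2F4 and E2F5 moved in opposite directions. E2F4, the most abundant E2F mRNA in all 3 groups, stood at 22.3, 22.9 and 27.2 FPKM in BEFs, at 17.1, 15.6 and 15.8 FPKM in CiADCs-3d and at 19.3, 17.4 and 21.4 FPKM in CiADCs-6d. The CiADCs samples were all below the BEFs samples, and those of day 6 were all above those of day 3. E2F4 changed by a log2 fold of -0.60 ± 0.12 (SE, adjusted p = 0.000942) in CiADCs-3d against BEFs and 0.25 ± 0.12 (adjusted p = 0.135) in CiADCs-6d against CiADCs-3d. In CiADCs-6d against BEFs it was -0.35 ± 0.12 (adjusted p = 0.0209). That call did not hold without BEFs replicate 3 (-0.25, adjusted p = 0.104) or without CiADCs-6d replicate 2 (-0.27, adjusted p = 0.0642).

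E2F5, the partner of RBL2 in resting cells, was the member with the largest rise. It stood at 4.2, 4.45 and 2.9 FPKM in BEFs, at 9.2, 6.52 and 5.37 FPKM in CiADCs-3d and at 6.03, 11.5 and 8.65 FPKM in CiADCs-6d. All CiADCs samples were above all BEFs samples, with a wide spread on both days. E2F5 changed by a log2 fold of 0.84 ± 0.26 (SE, adjusted p = 0.0134) in CiADCs-3d against BEFs and 1.14 ± 0.26 (adjusted p = 0.00174) in CiADCs-6d against BEFs. The day 3 call did not hold without BEFs replicate 3, the lowest of its group (0.68, adjusted p = 0.0579). Between the days the log2 fold change was 0.30 ± 0.25 (adjusted p = 0.392), and 0.68 (adjusted p = 0.00889) without the CiADCs samples numbered 1.

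E2F6, the pocket-independent repressor, rose on day 6. Its levels were 2.02, 2.47 and 2.03 FPKM in BEFs, 2.8, 2.49 and 2.11 FPKM in CiADCs-3d and 3.41, 3.56 and 3.1 FPKM in CiADCs-6d. BEFs and CiADCs-3d overlapped, and CiADCs-6d lay above both. On the log2 scale E2F6 changed by 0.59 ± 0.16 (SE, adjusted p = 0.00526) in CiADCs-6d against BEFs. It was 0.16 ± 0.16 (adjusted p = 0.415) in CiADCs-3d against BEFs and 0.43 ± 0.16 (adjusted p = 0.0574) in CiADCs-6d against CiADCs-3d, the last being 0.46 (adjusted p = 0.039) without the CiADCs samples numbered 1.

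The atypical repressors fell with the activators, E2F8 further than any other member. E2F8 had 731, 749 and 758 counts in BEFs, 15, 17 and 30 counts in CiADCs-3d and 2, 10 and 1 counts in CiADCs-6d. In FPKM it stood at 11.2, 10.2 and 10.7 in BEFs, at 0.3, 0.24 and 0.4 in CiADCs-3d and at 0.04, 0.17 and 0.02 in CiADCs-6d. The groups did not overlap, and on day 6 most of its 13 counts came from replicate 2. On the log2 scale E2F8 changed by -5.07 ± 0.28 (SE, adjusted p = 1.88e-08) in CiADCs-3d against BEFs and -7.26 ± 0.35 (adjusted p = 4.33e-09) in CiADCs-6d against BEFs. As a ratio of summed counts scaled to depth, the day 6 fall was 153.1-fold with a 95% counting interval of 89.3 to 287.9. From day 3 to day 6 E2F8 changed by -2.2 ± 0.48 (adjusted p = 0.00622). Without CiADCs-6d replicate 2 the day 6 value was -8.68 against BEFs and -3.64 (adjusted p = 0.00118) against CiADCs-3d.

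E2F7, the other atypical repressor, fell by less and was higher on day 6 than on day 3. It stood at 0.98, 1.26 and 1.21 FPKM in BEFs, at 0.17, 0.15 and 0.25 FPKM in CiADCs-3d and at 0.42, 0.31 and 0.3 FPKM in CiADCs-6d. The CiADCs-6d samples lay between the other groups, without overlap. The log2 fold change was -2.59 ± 0.26 (SE, adjusted p = 4.04e-06) in CiADCs-3d against BEFs and -1.77 ± 0.25 (adjusted p = 4.75e-05) in CiADCs-6d against BEFs. Between the days it was 0.82 ± 0.28 (adjusted p = 0.0472), from 48, 35 and 30 counts in CiADCs-6d against 17, 16 and 32 in CiADCs-3d. That call did not hold when any 1 sample other than CiADCs-3d replicate 3 was left out (adjusted p between 0.0655 and 0.155), nor without the CiADCs samples numbered 1 on both days (0.52, adjusted p = 0.21).

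The DP partners diverged. TFDP1, the DP protein found in most cell types, stood at 35.7, 33.9 and 34.8 FPKM in BEFs, at 12.8, 11.03 and 14.1 FPKM in CiADCs-3d and at 11.6, 9.69 and 10.8 FPKM in CiADCs-6d. The BEFs samples were far above the CiADCs samples, which overlapped between the days. The log2 fold change was -1.48 ± 0.12 (SE, adjusted p = 4.45e-07) on day 3 and -1.76 ± 0.12 (adjusted p = 8.35e-08) on day 6, each against BEFs. Between the days it was -0.28 ± 0.12 (adjusted p = 0.0973), and -0.39 (adjusted p = 0.0252) without CiADCs-6d replicate 1. Without the CiADCs samples numbered 1 on both days it was -0.4 (adjusted p = 0.015).

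TFDP2, the second DP protein, stood at 4.01, 3.99 and 3.74 FPKM in BEFs, at 6.3, 5.72 and 6.48 FPKM in CiADCs-3d and at 5.08, 5.08 and 4.6 FPKM in CiADCs-6d. The groups did not overlap, with CiADCs-3d the highest. The log2 fold change was 0.63 ± 0.10 (SE, adjusted p = 0.000123) in CiADCs-3d against BEFs. It was 0.31 ± 0.10 (adjusted p = 0.0136) in CiADCs-6d against BEFs, a call that did not hold without BEFs replicate 3 (0.27, adjusted p = 0.0612). In CiADCs-6d TFDP2 was lower than in CiADCs-3d, by a log2 fold change of -0.32 ± 0.10 (adjusted p = 0.026). It did not hold without replicate 3 of CiADCs-3d (adjusted p = 0.1) or replicate 3 of CiADCs-6d (adjusted p = 0.0694).

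**Figure D2:**
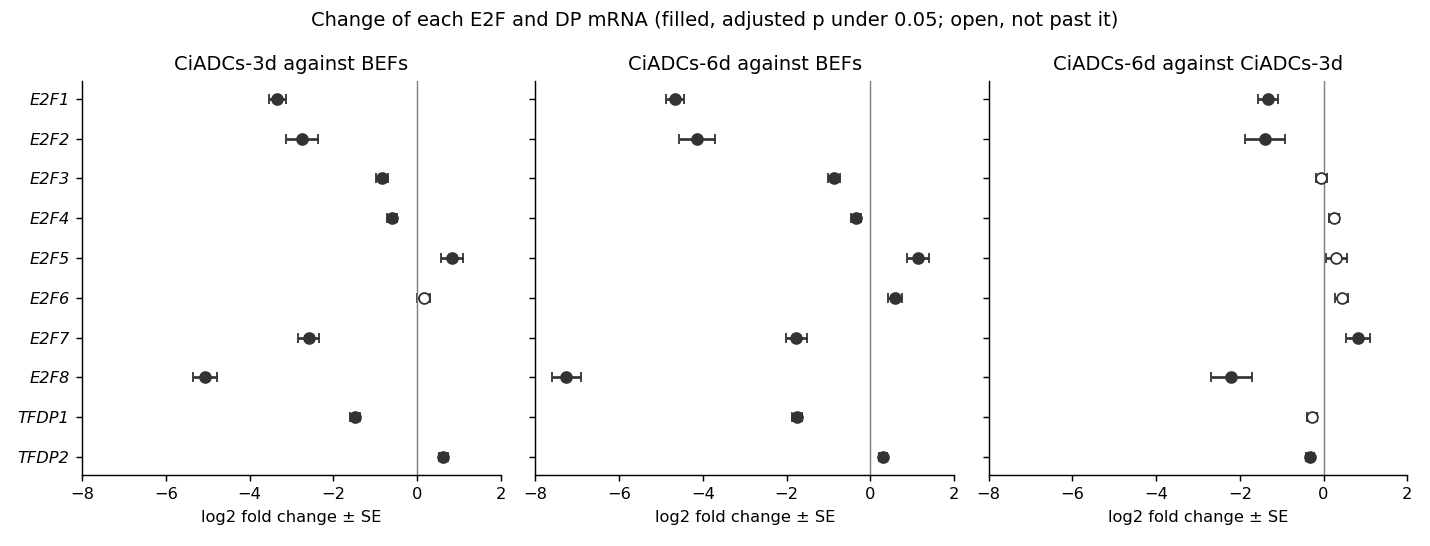
log2 fold change ± SE (x axis) of each member (y axis) in CiADCs-3d against BEFs, CiADCs-6d against BEFs and CiADCs-6d against CiADCs-3d, from edgeR's quasi-likelihood test on counts of 3 samples a group. Filled points passed at an adjusted p under 0.05 and open points did not. Against BEFs, E2F8 lies farthest to the left on both days (-5.07 and -7.26), and E2F5 farthest to the right (0.84 and 1.14).

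Because FPKM is scaled to gene length, the members can be set beside each other within a group. In BEFs TFDP1 was the most abundant, followed by E2F4, then E2F1 and E2F8, whose ranges overlapped. E2F3 came next, then TFDP2 and E2F5 with overlapping ranges, then E2F2 and E2F6 with overlapping ranges, and E2F7 last. In CiADCs-3d E2F4 led, followed by TFDP1, by E2F5 and TFDP2 with overlapping ranges, by E2F3 and E2F6 with overlapping ranges, and by E2F1. E2F2, E2F8 and E2F7 came last, each overlapping the next. In CiADCs-6d E2F4 led, TFDP1 and E2F5 overlapped behind it, TFDP2 followed, E2F6 and E2F3 overlapped, and the ranges of E2F1, E2F7, E2F2 and E2F8, at the bottom, each overlapped the next.

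The summed level of E2F1, E2F2 and E2F3 was 18.8 ± 0.99 FPKM in BEFs, 4.41 ± 0.15 FPKM in CiADCs-3d and 3.54 ± 0.46 FPKM in CiADCs-6d (SD, n = 3 each). The summed level of the repressors E2F4, E2F5 and E2F6 was 30.1 ± 1.8 FPKM in BEFs, 25.6 ± 3.0 FPKM in CiADCs-3d and 31.4 ± 2.4 FPKM in CiADCs-6d. The activator sum was several times lower in both CiADCs groups. The repressor sum of 2 of the 3 CiADCs-3d samples lay below every BEFs sample, and the CiADCs-6d samples overlapped BEFs. The ratio of the activator sum to the repressor sum was 0.697, 0.601 and 0.581 in the BEFs samples, 0.157, 0.178 and 0.183 in those of CiADCs-3d and 0.114, 0.126 and 0.0984 in those of CiADCs-6d. The 3 groups were apart in every sample.

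On the log2 scale this ratio was lower by 1.85 in CiADCs-3d than in BEFs and lower by 2.48 in CiADCs-6d than in BEFs. It was lower by 0.62 in CiADCs-6d than in CiADCs-3d. Each exact two-sided permutation test gave p = 0.1, the smallest value that 3 samples against 3 can give. The activators made up 31.0% of the summed E2F1 to E2F8 level in BEFs, 14.5% of it in CiADCs-3d and 10.0% of it in CiADCs-6d (means of 3). The repressors E2F4 to E2F6 made up 49.6%, 83.8% and 88.8% in the same order of days, and E2F7 with E2F8 made up 19.5%, 1.67% and 1.2%.

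**Figure D3:**
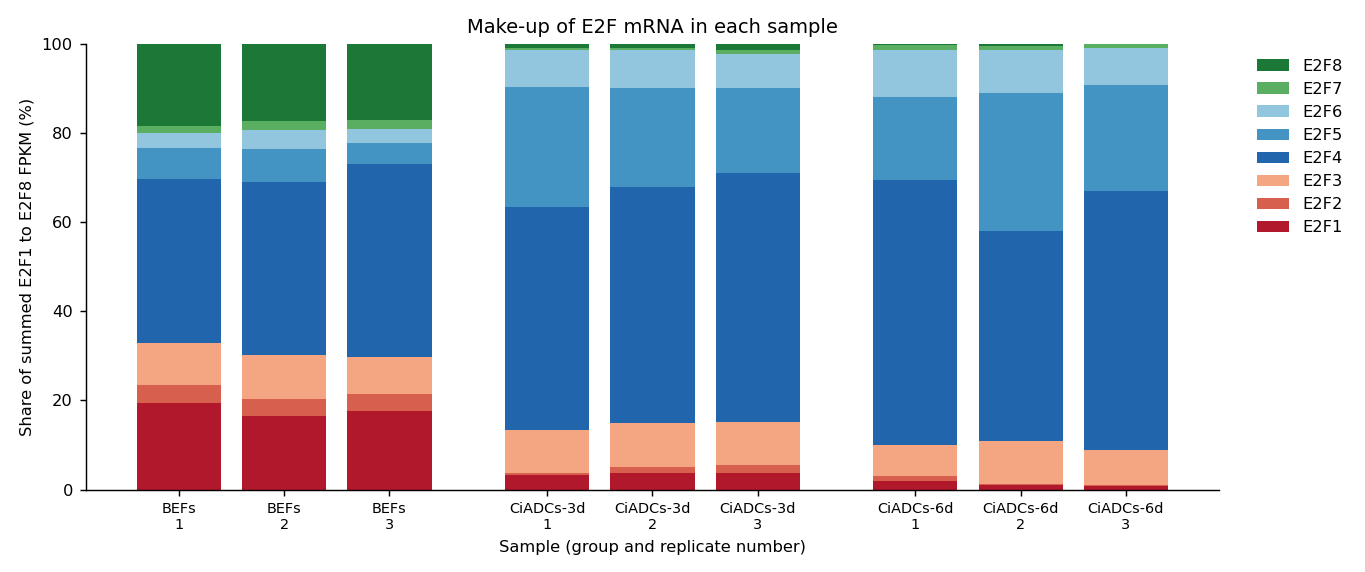
Share of each E2F gene (%, y axis, stacked to 100) in the summed FPKM of E2F1 to E2F8, for each sample (x axis, group and replicate number). Red shades are the activators, blue shades E2F4 to E2F6 and green shades the atypical E2F7 and E2F8. The red part averages 31.0% in BEFs, 14.5% of it in CiADCs-3d and 10.0% of it in CiADCs-6d.

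Within the activators the leading gene changed. E2F1 made up 57.6 ± 2.9% of the activator sum in BEFs, 24.5 ± 0.67% of it in CiADCs-3d and 12.4 ± 5.7% of it in CiADCs-6d (SD, n = 3 each). E2F3 made up 29.9 ± 2.8% in BEFs, 67.4 ± 4.3% of it in CiADCs-3d and 82.7 ± 10.6% of it in CiADCs-6d. E2F3 was thus the main activator mRNA in both CiADCs groups. E2F5 stood to E2F4 as 0.163 ± 0.049 to 1 in BEFs, as 0.433 ± 0.1 to 1 in CiADCs-3d and as 0.459 ± 0.18 to 1 in CiADCs-6d. TFDP2 made up 10.1% of the DP sum in BEFs, 32.9% of it in CiADCs-3d and 31.6% of it in CiADCs-6d. The sum of the DP genes was 38.7 FPKM in BEFs, 18.8 FPKM in CiADCs-3d and 15.6 FPKM in CiADCs-6d.

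Of the pocket proteins, RB1 rose on both days and RBL1 fell on day 3. RB1, the partner of the activators, stood at 3.42, 4.4 and 3.33 FPKM in BEFs, at 9.41, 6.82 and 6.64 FPKM in CiADCs-3d and at 7.58, 11.5 and 8.51 FPKM in CiADCs-6d, with no overlap between BEFs and either CiADCs group. Its log2 fold change was 1.01 (adjusted p = 0.000342, edgeR's quasi-likelihood test) on day 3, and on day 6 it was 1.27 (adjusted p = 4.48e-05) on day 6. RBL1 (p107), itself a known E2F target, fell by 0.83 on the log2 scale on day 3 (adjusted p = 0.00419) and averaged 6.35 FPKM in BEFs, 3.63 FPKM in CiADCs-3d and 4.57 FPKM in CiADCs-6d. On day 6 it did not pass (adjusted p = 0.0538). RBL2 (p130), the pocket protein of resting cells, was the most abundant in every group. It averaged 11.2 FPKM in BEFs, 14.0 FPKM in CiADCs-3d and 14.4 FPKM in CiADCs-6d.

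RBL2 changed by 0.29 on the log2 scale on day 3 (adjusted p = 0.0383) and by 0.34 on day 6 (adjusted p = 0.0167). The day 3 call did not hold when a BEFs sample or replicate 1 of CiADCs-3d was left out (adjusted p between 0.0845 and 0.103), and the day 6 call did not hold when replicate 1 or 2 of BEFs or replicate 2 of CiADCs-6d was left out (between 0.0544 and 0.0625). The ratio of the pocket protein sum to the summed level of E2F1 to E2F5, the E2F proteins that bind them, averaged 0.456 ± 0.038 over the BEFs samples, 0.911 ± 0.055 over those of CiADCs-3d and 0.89 ± 0.11 over those of CiADCs-6d (SD, n = 3 each). Both CiADCs groups lay above BEFs without overlap, and they overlapped each other.

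E2F4 and E2F5 repress as part of the DREAM complex, in which a pocket protein and the MuvB proteins bind together. In dividing cells MuvB instead joins MYBL2 and FOXM1 to activate genes of mitosis. Of 9 genes of MuvB, its partners and the kinase DYRK1A, which helps to assemble DREAM, 8 fell and none rose in CiADCs-3d against BEFs, and 6 fell and none rose in CiADCs-6d against BEFs. The median log2 fold change was -0.69 and -0.83. Of all genes tested, 29.1% fell on day 3 and 31.9% on day 6, against BEFs. Among the activating partners, FOXM1 had -4.49 (adjusted p = 7.65e-07) on day 3 and -6.60 (adjusted p = 1.15e-07) on day 6, and MYBL2 had -2.70 (adjusted p = 6.23e-09) and -2.54 (adjusted p = 8.03e-09). Without CiADCs-3d replicate 3 the day 3 value of FOXM1 was -5.30, and without CiADCs-6d replicate 2 its day 6 value was -7.54. LIN9, a core subunit, fell by 2.44 and 2.53 on the log2 scale, close to MYBL2, and MYBL1, a relative of MYBL2, fell by 1.82 and by 1.07. LIN37, the subunit needed for repression by DREAM, averaged 9.83 FPKM in BEFs, 8.73 FPKM in CiADCs-3d and 10.2 FPKM in CiADCs-6d. It did not pass on either day (adjusted p = 0.284 and 0.938, edgeR). Of the same 9 genes, LIN52 fell by 0.68 and 0.46 on the log2 scale, and RBBP4 by 0.55 and 0.83. LIN54 and DYRK1A fell on day 3 only, by 0.69 and 0.38.

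Of 8 corepressor genes, 6 fell and none rose on day 3, with a median log2 fold change of -0.44. On day 6, 4 fell and 1 rose, with a median of -0.48. Over all genes tested 29.1% fell and 30.9% rose on day 3, and 31.9% fell and 35.6% rose on day 6. SUV39H1, a histone H3 methyltransferase recruited by RB1, fell by 2.54 (adjusted p = 2.99e-07) on day 3 and by 2.88 (adjusted p = 9.65e-08) on day 6. HDAC1, a histone deacetylase, fell by 0.73 (adjusted p = 0.0168) on day 3, a call lost without CiADCs-3d replicate 1 (-0.54, adjusted p = 0.0712), and by 1.79 (adjusted p = 3.13e-05) on day 6, and averaged 70.4 FPKM in BEFs, 43.0 FPKM in CiADCs-3d and 20.8 FPKM in CiADCs-6d. The gene that rose on day 6 was SIN3B, with a log2 fold change of 0.26 (adjusted p = 0.0184). Its call did not hold without BEFs replicate 1 or 2 or CiADCs-6d replicate 3 (adjusted p between 0.0726 and 0.0995).

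E2F6 acts within PRC1.6, a Polycomb complex that silences germline genes. Of 10 other genes of PRC1.6, 5 fell and 2 rose in CiADCs-3d against BEFs and 6 fell and 2 rose in CiADCs-6d against BEFs, where E2F6 rose. The shares over all genes tested were 29.1% lower and 30.9% higher on day 3, and 31.9% lower and 35.6% higher on day 6, so no larger a share of these genes rose than of all genes. MAX, a DNA-binding subunit, was among the 6 on day 6 (-0.41, adjusted p = 0.0256), a call lost without BEFs replicate 1 or 2, without replicate 3 of CiADCs-6d or with a replicate block (adjusted p between 0.0503 and 0.0664). L3MBTL2, a subunit that binds chromatin, fell by 1.12 (adjusted p = 5.96e-05) and 1.43 (adjusted p = 6.41e-06) on the log2 scale. RYBP, a subunit shared with other Polycomb complexes, rose by 0.37 (adjusted p = 0.0092) and 1.03 (adjusted p = 3.16e-06). The second gene that rose, YAF2, a close relative of RYBP, had 0.70 (adjusted p = 0.0335) on day 3 and 0.90 (adjusted p = 0.00814) on day 6. Its day 3 call did not hold when a BEFs sample or replicate 1 of CiADCs-3d was left out (adjusted p between 0.0655 and 0.101).

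Apart from MAJIN and STAG3, the germline genes that E2F6 and PRC1.6 are known to silence in mouse cells were nearly absent. Of 9 such genes, 8 were found and 2 passed the filter on low counts. MAJIN, which ties telomeres to the nuclear envelope in meiosis, had 0 counts in all BEFs samples, 25, 45 and 43 counts in CiADCs-3d and 36, 26 and 25 counts in CiADCs-6d. STAG3, a meiotic cohesin subunit, fell by 1.6 on the log2 scale in CiADCs-3d against BEFs (adjusted p = 0.000388), and averaged 0.703 FPKM in BEFs, 0.227 FPKM in CiADCs-3d and 0.49 FPKM in CiADCs-6d. The other 6 had mean levels of at most 0.08 FPKM in any group.

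Upstream of the pocket proteins, cyclin D and cyclin E kinases release E2F proteins, and CDK inhibitors keep the kinases in check. Of 8 genes of G1 cyclins and kinases, 5 fell and none rose on day 3, and 5 fell and 1 rose on day 6, beside 29.1% and 31.9% of all genes that fell and 30.9% and 35.6% that rose. CCNE2, one of the 5 on day 6 (-0.78, adjusted p = 0.0341), was not past the threshold without BEFs replicate 1 or 2, without replicate 3 of CiADCs-6d or with a replicate block (adjusted p between 0.0577 and 0.136). CCND1, the main cyclin D of fibroblasts, averaged 187.4 FPKM in BEFs, 85.3 FPKM in CiADCs-3d and 97.7 FPKM in CiADCs-6d. CDK4 fell by 1.12 (adjusted p = 6.55e-06) on day 3 and by 1.56 (adjusted p = 3.22e-07) on day 6. CCND2 was the gene that rose, with 0.40 (adjusted p = 0.0134), a call that did not hold without BEFs replicate 1 or 2 or CiADCs-6d replicate 3 (adjusted p between 0.053 and 0.0851).

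Most of the CDK inhibitors rose: 4 of 7 on each day, while none fell on day 3 and 1 (CDKN2C) fell on day 6. Over all genes tested, 30.9% rose on day 3 and 35.6% on day 6. CDKN1A (p21) averaged 82.1 FPKM in BEFs, 168.4 FPKM in CiADCs-3d and 499.2 FPKM in CiADCs-6d. Its log2 fold change was 1.00 (adjusted p = 5.12e-05) on day 3, 2.56 (adjusted p = 1.68e-08) on day 6 and 1.55 (adjusted p = 6.91e-05) between the days. CDKN2B (p15), an inhibitor of CDK4, rose by 2.05 (adjusted p = 5.65e-08) and 2.37 (adjusted p = 1.34e-08), and CDKN2A by 1.44 (adjusted p = 1.54e-07) and 1.34 (adjusted p = 2.25e-07). CDKN2D, the fourth, had 0.81 (adjusted p = 0.0498) on day 3, a call lost without replicate 1 of CiADCs-3d (0.41, adjusted p = 0.241), replicate 3 of CiADCs-3d, a BEFs sample or replicate 2 of CiADCs-6d (adjusted p between 0.0551 and 0.127), and 2.34 (adjusted p = 5.32e-05) on day 6. CDKN2C fell by 0.89 (adjusted p = 0.00017) in counts on day 6. It averaged 33.3 FPKM in BEFs, 42.6 FPKM in CiADCs-3d and 27.1 FPKM in CiADCs-6d, so on day 3 the FPKM was higher where the count test gave -0.24 (adjusted p = 0.165).

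Genes whose products mark or degrade E2F proteins mostly fell: 6 of 8 on each day, while 2 rose on day 3 and 1 on day 6. Of all genes tested, 29.1% fell and 30.9% rose on day 3, and 31.9% fell and 35.6% rose on day 6. CCNF, the cyclin F that targets activator E2F proteins for degradation, had log2 fold changes of -3.99 (adjusted p = 2.4e-08) and -5.18 (adjusted p = 4.65e-09). FZR1 (CDH1), which activates the ubiquitin ligase that degrades E2F7 and E2F8, fell by 0.83 (adjusted p = 6.97e-05) and 0.94 (adjusted p = 2.01e-05). KAT2B, an acetyltransferase that acts on E2F1, rose by 0.77 (adjusted p = 1.61e-05) and 0.41 (adjusted p = 0.00186), and ATM, a kinase that phosphorylates E2F1, by 0.51 (adjusted p = 0.00416) on day 3.

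**Figure D4:**
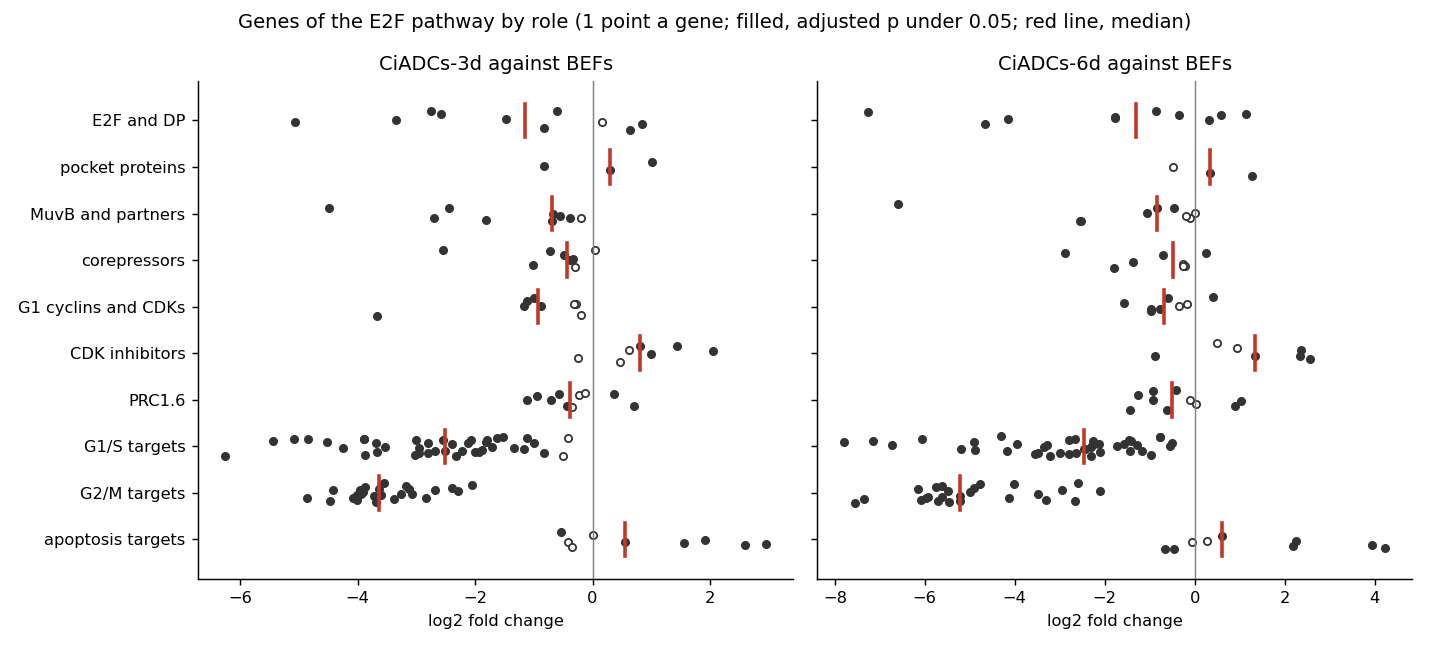
log2 fold change (x axis) of each tested gene of 10 groups of the E2F pathway (y axis), in CiADCs-3d against BEFs and CiADCs-6d against BEFs. Filled points passed at an adjusted p under 0.05 in edgeR's quasi-likelihood test, open points did not, and red lines are medians. The G1/S targets (median -2.51 and -2.46) and the G2/M targets (median -3.64 and -5.22) lie to the left of 0, and the medians of the pocket proteins, CDK inhibitors and apoptosis targets lie to the right.

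The targets of the E2F proteins fell with the activators. Of 41 G1/S genes, which activator E2F proteins induce before S phase, 39 fell in CiADCs-3d against BEFs and all 41 in CiADCs-6d against BEFs, and none rose on either day, while 29.1% and 31.9% of all genes fell. The median log2 fold change was -2.51 on day 3 and -2.46 on day 6, beside 0.01 and 0.03 for all genes tested. This list, like all the gene lists used here, was written with earlier results of these data known, so the counts of every list are a description. CCNE1 and CCNE2 are also in the list of G1 cyclins and kinases. CHAF1B, a chromatin assembly subunit, did not pass on day 3, with -0.50 (adjusted p = 0.0519). The CHAF1B call on day 6 (-0.54, adjusted p = 0.0349) did not hold without BEFs replicate 2 or 3 or CiADCs-6d replicate 2 or 3 (adjusted p between 0.0801 and 0.0882). Depending on the sample left out, 39 to 41 passed on day 6.

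RRM2, the small subunit of ribonucleotide reductase, fell furthest of the 41. It averaged 72.1 FPKM in BEFs, 0.94 FPKM in CiADCs-3d and 0.333 FPKM in CiADCs-6d, and its log2 fold change was -6.26 (adjusted p = 9.28e-10) on day 3 and -7.79 (adjusted p = 3.48e-10) on day 6. The large subunit RRM1 stayed higher, at 60.1 FPKM in BEFs, 11.6 FPKM in CiADCs-3d and 9.75 FPKM in CiADCs-6d. Other targets kept part of their level as well. MCM7, of the replicative helicase, averaged 99.6 FPKM in BEFs, 21.5 FPKM in CiADCs-3d and 14.6 FPKM in CiADCs-6d, and TYMS, thymidylate synthase, averaged 69.7 FPKM in BEFs, 16.0 FPKM in CiADCs-3d and 16.0 FPKM in CiADCs-6d. UHRF1, which brings the maintenance DNA methyltransferase to replicated DNA, fell by 5.44 (adjusted p = 1.71e-10) and 6.72 (adjusted p = 8.8e-11). MSH6, of mismatch repair, fell by only 0.83 (adjusted p = 0.000758) and 0.78 (adjusted p = 0.000914).

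All 25 G2/M genes, the known targets of MuvB with MYBL2 and FOXM1, fell on both days, and the median of their log2 fold changes was -3.64 on day 3 and -5.22 on day 6. Of all genes tested, 29.1% fell on day 3 and 31.9% on day 6, with medians of 0.01 and 0.03. KIF20A, a kinesin of cytokinesis, fell furthest on both days, by 4.86 (adjusted p = 6.14e-07) and 7.55 (adjusted p = 5.39e-08). Its day 3 value was -5.63 without CiADCs-3d replicate 3. CDK1, the mitotic kinase, fell by 2.39 (adjusted p = 2.46e-07) and 3.31 (adjusted p = 1.84e-08). The summed level of the G2/M genes was 732.1 to 837.1 FPKM in BEFs, 45.8 to 92.8 FPKM in CiADCs-3d and 31.7 to 36.2 FPKM in CiADCs-6d. That of the G1/S genes was 1067 to 1084 FPKM in BEFs, 180.7 to 208.2 FPKM in CiADCs-3d and 171.6 to 201.5 FPKM in CiADCs-6d.

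E2F1 is also known to induce genes of apoptosis. Of 10 such genes 9 were tested, and in CiADCs-3d against BEFs 5 rose and 1 (TP73) fell. In CiADCs-6d against BEFs 5 rose and 2 (TP73 and CASP9) fell. Over all genes tested 30.9% rose and 29.1% fell on day 3, and 35.6% rose and 31.9% fell on day 6, and with 9 genes no difference from these shares was tested. The TP73 call on day 6 (-0.46, adjusted p = 0.0207) did not hold without BEFs replicate 2 or 3 or CiADCs-6d replicate 2 (adjusted p between 0.055 and 0.0724). BBC3 (PUMA), a BH3-only protein that is also a p53 target, averaged 2.12 FPKM in BEFs, 13.0 FPKM in CiADCs-3d and 41.3 FPKM in CiADCs-6d. Its log2 fold change was 2.60 (adjusted p = 6.59e-09) on day 3 and 4.24 (adjusted p = 1.6e-10) on day 6. PMAIP1 (NOXA), likewise a p53 target, rose by 2.96 (adjusted p = 5.73e-05) and 3.94 (adjusted p = 3.93e-06), the day 3 value being 2.33 without CiADCs-3d replicate 1. BCL2L11 (BIM) rose by 1.55 (adjusted p = 6.68e-07) and 2.26 (adjusted p = 2e-08).

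PPARG and PDK4, known targets of E2F proteins in other cells, both rose on day 3, where 30.9% of all genes tested rose. PPARG stood at 2.23, 1.86 and 2.41 FPKM in BEFs, at 9.17, 5.4 and 6.71 FPKM in CiADCs-3d and at 2.87, 3.27 and 4.23 FPKM in CiADCs-6d. The 3 groups did not overlap, with CiADCs-3d the highest. It rose by 1.68 (adjusted p = 4.03e-05) on day 3, and was lower by 1.05 (adjusted p = 0.00497) in CiADCs-6d than in CiADCs-3d. The day 6 value against BEFs, 0.64 (adjusted p = 0.0264), did not hold without BEFs replicate 1 or 2 or CiADCs-6d replicate 3 (adjusted p between 0.058 and 0.13). PDK4, a pyruvate dehydrogenase kinase that E2F1 induces in other cells, averaged 0.317 FPKM in BEFs, 7.87 FPKM in CiADCs-3d and 6.33 FPKM in CiADCs-6d.

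Between day 3 and day 6 most G1/S targets did not pass. Of the 41, 14 were lower and 5 higher on day 6 than on day 3, and 22 did not pass, beside 13.6% of all genes that were lower and 14.4% that were higher. The number higher was thus no larger a share than that of all genes. The number lower was 9 when replicate 3 of either CiADCs group was left out and 23 without the CiADCs samples numbered 1 on both days. The 5 that were higher are named because they were few. CCNE2, the cyclin E that starts S phase with CDK2, had 133, 141 and 79 counts in CiADCs-6d against 15, 5 and 28 in CiADCs-3d (log2 fold change 2.89, adjusted p = 0.000379). The origin factors ORC1 and CDC6 were higher by 1.85 (adjusted p = 0.00119) and 1.23 (adjusted p = 0.0062), and SLBP, which binds histone mRNA, by 0.66 (adjusted p = 0.00263).

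The fifth was TK1, thymidine kinase, with 0.38 (adjusted p = 0.0351). Its call did not hold when any 1 sample other than CiADCs-3d replicate 3 was left out (adjusted p between 0.0509 and 0.127), nor without the CiADCs samples numbered 1 on both days (0.2, adjusted p = 0.172). The same held of E2F7, itself a known target of the activators. In the opposite direction CDT1, the partner of CDC6 in loading the helicase, had 4, 4 and 1 counts in CiADCs-6d against 13, 16 and 29 in CiADCs-3d (-2.61, adjusted p = 0.00106). POLE, the leading-strand polymerase, was lower by 1.68 (adjusted p = 0.00173) and RRM2 by 1.53 (adjusted p = 0.00421). Of the 25 G2/M genes 20 were lower on day 6 and none was higher (13.6% of all genes were lower), while PLK1, KIF23, PRC1, ECT2 and AURKA did not pass.

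**Figure D5:**
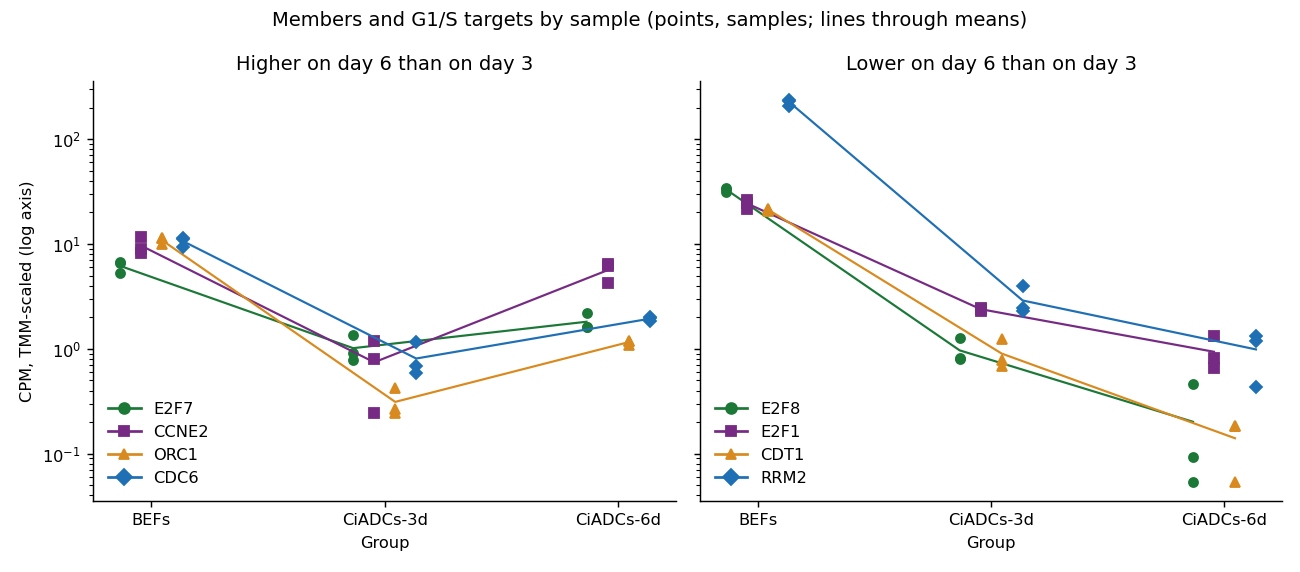
CPM, TMM-scaled (y axis, log scale), of E2F7, CCNE2, ORC1 and CDC6, which were higher on day 6 than on day 3, and of E2F8, E2F1, CDT1 and RRM2, which were lower, in BEFs, CiADCs-3d and CiADCs-6d (x axis). Points are samples and lines join the means of 3 samples. In both panels the BEFs samples of these genes lie above the CiADCs samples. The genes were chosen after their values were seen. Between the days E2F7 had an adjusted p of 0.0472 (edgeR's quasi-likelihood test). That call did not hold when any 1 sample other than CiADCs-3d replicate 3 was left out.

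Across the 9 samples the members fell into patterns of likeness, measured as Pearson's r of log2(CPM + 1). All these values rest on the same 9 libraries and mostly on the step between BEFs and the CiADCs, and they are given as a description. E2F1, E2F2, E2F8 and TFDP1 had r of 0.97 or more with each other, whereas E2F5 had r between -0.92 and -0.82 with these 4. TFDP2 had r of -0.91 with E2F4 and -0.90 with E2F7. The genes most like E2F8 were CDT1, CLSPN and RECQL4 (r = 0.998 each), all of DNA replication, and those most like E2F7 were TK1 and ORC1 (r = 0.989 each) and THOC3 (r = 0.988). E2F1 was most like NUP205 (r = 0.997), MYO1C and METAP1 (r = 0.996 each), and E2F2 most like EIF1AX and COPZ2 (r = 0.998 each) and OLFML3 (r = 0.997).

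E2F3 was most like SCN9A (r = 0.991), RPGR and ARFGAP3 (r = 0.990 each), E2F4 most like DCTN3 (r = 0.991), FLII (r = 0.971) and LZTS2 (r = 0.970). The genes most like E2F5 were SLMAP (r = 0.994), FAM76B and CCDC28A (r = 0.983 each), and those most like E2F6 were CHCHD7 (r = 0.968), FBXW7 (r = 0.965) and MEGF9 (r = 0.951). TFDP1 was most like SLC2A4RG (r = 0.997), COL16A1 (r = 0.996) and an assembled locus without a symbol (r = 0.995), and TFDP2 most like KIF26B (r = 0.994), HADH and NALF2 (r = 0.986 each).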

How the data were processed

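The deposited table held 2 measures of each gene per sample. One was an expected count, the authors' estimate of its reads, and the other an FPKM value, which takes account of gene length and of library size as the authors set them. In the submitters' processing notes stand RSEM, StringTie 1.3.1, HISAT2 2.2.4 and fastp 0.18.0, while the study's methods name TopHat. The genome build is not given in the sources used here, and the library kit differs between the labels (rRNA removal) and the methods (oligo(dT) beads). A gene length that differed between samples can make FPKM and counts move apart.

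Expected counts were rounded to whole numbers and filtered by filterByExpr (minimum count 10, minimum total 15), which kept 14020 of 21512 genes. Libraries were scaled by TMM, with factors of 0.981 to 1.03. edgeR 4.0.16 in R 4.3.3 fitted all 9 samples by quasi-likelihood, with each group as a coefficient. SE was taken from the F statistic (the log2 fold change over its square root), and adjusted p follows Benjamini-Hochberg over all 14020 genes. FPKM was used for levels and sums, and the exact permutation test used scipy 1.17.1. Figures used matplotlib 3.10.9. The fit was tested on simulated data.

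The 10 members and the gene lists, written from textbook knowledge, were chosen with earlier results of these data known. Symbols were matched through NCBI gene numbers to RefSeq (20582 of 21039 numbers matched), and 166 of 167 list genes were found. Named are all members, all genes of lists of 10 or fewer, and of longer lists the 3 with the highest mean FPKM and the 2 highest and 2 lowest log2 fold changes among those that passed, with the 3 genes most like each member; further genes were named after their values were seen, where 5 or fewer made up a count. Alternatives were other scalings and filters, DESeq2 1.42.0, limma 3.58.1 on log2(FPKM + 1) and log2(FPKM + 0.1), a fit to the 2 groups compared, a replicate block, and each sample left out. Some genes of these lists are not reported here by name. Sequencing batches were not given. Replicates of a group differed by more than sampling noise, and CiADCs replicate 1 of both days stood apart, so leaving out both was added after the data were seen.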

Additional observations from a re-analysis of the deposited data

Results flagged for a closer look

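The effect against BEFs differed between day 6 and day 3 for 5 members, by the test of CiADCs-6d against CiADCs-3d, which is the test of that difference because both effects use the same BEFs samples. The difference (log2, day 6 minus day 3) was -1.33 for E2F1, -1.40 for E2F2, -2.2 for E2F8, -0.32 for TFDP2 and 0.82 for E2F7. The values of E2F2, E2F7 and TFDP2 were close to the threshold, with adjusted p of 0.0482, 0.0472 and 0.026 in edgeR's quasi-likelihood test.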

How the results depend on the processing

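Of the members' 30 log2 fold changes, the signs held in all alternatives other than for E2F3 in CiADCs-6d against CiADCs-3d, which was -0.05 and ranged from -0.15 to 0.03 with 1 sample left out and was 0.13 without the CiADCs samples numbered 1 on both days, an alternative chosen after the data were seen. In CiADCs-3d against BEFs the number of members that rose was 2, and 1 to 2 with 1 sample left out. In CiADCs-6d against CiADCs-3d it was 1, and 0 with upper-quartile scaling, with no filter, in limma on log2(FPKM + 1) with or without the filter and on log2(FPKM + 0.1), with only the 2 groups compared and with a replicate block. It was 2 with at least 10 counts in every sample (which removes E2F2 and E2F8) and 2 without the CiADCs samples numbered 1, where E2F5 (0.68, adjusted p = 0.00889) and E2F6 (0.46, adjusted p = 0.039) passed in edgeR, and 0 to 1 with 1 sample left out. The number that fell, 4, was 2 with at least 10 counts in every sample, in limma on log2(FPKM + 1) or log2(FPKM + 0.1), with only the 2 groups compared and with a replicate block, 1 in limma on log2(FPKM + 1) without the filter, and 2 to 5 with 1 sample left out. Without the CiADCs samples numbered 1, TFDP1 also fell (-0.4, adjusted p = 0.015 in edgeR). The number of G1/S targets that fell between the days, 14, was 9 to 20 with 1 sample left out and 23 without the CiADCs samples numbered 1. The log2 difference of the activator to repressor ratio was -1.5 on day 3 and -2.05 on day 6 with CPM in place of FPKM, and -1.4 and -2.02 with E2F7 and E2F8 added to the repressors. The cause of these shifts was not tested. On log2(FPKM + 1) the changes of the low members are smaller by construction, for example -3.44 for E2F8 in CiADCs-6d against BEFs.

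Samples of the same number did not deviate together (r between -0.37 and 0.15), which gave no sign that the replicate numbers pair the samples. With 3 samples a group this cannot exclude pairing. The value of -0.37 was that of CiADCs-3d replicate 1 with CiADCs-6d replicate 1. With the replicate block, the calls of E2F2, E2F7 and TFDP2 between the days were not past the threshold (adjusted p = 0.0937, 0.0778 and 0.0519, edgeR). The search of promoters for E2F motifs was not run. On day 6 E2F8 and E2F2 rest on 13 and 36 counts in all.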
